A study of Mus musculus with 4 samples.

Results

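Müller glia nuclei of the mouse retina are described here: 3586 nuclei of 32326 barcodes in 4 libraries. A barcode was taken as a Müller glia nucleus when at most 5% of its unique molecular identifiers (UMIs, each marking 1 captured RNA molecule) were mitochondrial and when 8 marker genes together had at least 6 UMIs with at least 3 of the 8 detected. The 8 genes were Slc1a3 (a glutamate transporter), Rlbp1 (a carrier of retinaldehyde), Glul (glutamine synthetase), Abca8a (a lipid transporter family member), Col9a1 (a collagen chain), Aqp4 (a water channel), Kcnj10 (a potassium channel) and Clu (the secreted chaperone clusterin). Barcodes with more than 2 UMIs of the cone genes Arr3, Opn1mw and Pde6c, of the ON bipolar genes Trpm1 and Grm6, or of the inner retinal genes Gad1, Slc6a9 and Slc17a6 were left out. So were barcodes with more than 1 UMI of the pigment cell genes Rpe65, Dct and Tyrp1 or of the fibroblast genes Col1a2 and Col3a1. Levels of these 21 genes chose the nuclei, so they are given below as a description and with no test. The rule has no exclusion for rods, astrocytes or ciliary epithelium.

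Müller glia are the radial glial cells that span the whole thickness of the vertebrate retina and wrap its neurons. They take up glutamate and turn it into glutamine, clear potassium and water, handle retinoids for cones and seal the outer limiting membrane with adherens junctions. They share many genes with retinal progenitors, and after injury they raise stress genes such as Gfap in a response called gliosis.

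Each library held nuclei from the left eye of 1 animal, prepared with the 10x droplet method for single nuclei. Replicates 1 and 2 at age 2.5 months are labelled wild type, and replicates 1 and 2 at age 5 months carry no genotype label. No strain or treatment is named. Age is the contrast that the labels give, and each library is 1 animal, numbered as a donor. Cell Ranger 7.1.0 made the count tables of the younger animals and version 4.0.0 those of the older ones. Every age difference below is therefore also a difference in software, and the effects of these cannot be told apart.

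The 4 libraries held 7404 to 9963 barcodes and 19608067 to 36320257 UMIs. Pairs of libraries shared 6 to 25 barcodes, and 2 of the shared barcodes were among the Müller glia nuclei. Xist was at 0.677 and 1.25 CPM (counts per 1000000 UMIs) in replicate 1 of the 2 ages and at 2299 and 2311 CPM in replicate 2, so each age had 1 library with Xist and 1 nearly without. The 2.5-month replicate 1 stood apart in striated muscle genes: 6 of them summed to 401 CPM in its Müller glia nuclei, against 43.0, 30.4 and 21.8 CPM in the 2.5-month replicate 2 and the 5-month replicates 1 and 2. The same 6 genes reached 439 CPM in rods.

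The Müller glia nuclei numbered 466 and 502 at 2.5 months and 1339 and 1279 at 5 months. Their summed UMIs were 1478265, 2207949, 3986898 and 4128746, and these sums set the precision of every level below. A Müller glia nucleus had a median of 2890 and 4092.5 UMIs at 2.5 months and of 2615 and 2888 UMIs at 5 months. The 8 rule genes gave a median of 21, 30, 21 and 23 UMIs per nucleus, far from the threshold. Just inside it, at a sum of 6 UMIs, stood 13, 20, 23 and 11 nuclei, and just outside, at a sum of 5 UMIs, 43, 47, 37 and 27. Among barcodes that met the marker threshold, the exclusions kept 57.0%, 67.5%, 77.6% and 73.0%, and the pigment cell genes removed the most in each library. No doublet caller was run, so pairs of nuclei that share a droplet can remain.

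Müller glia made up 6.31% (95% Wilson interval 5.78% to 6.89%) and 6.77% (6.22% to 7.36%) of barcodes at 2.5 months. They made up 17.8% (16.9% to 18.6%) and 12.8% (12.2% to 13.5%) at 5 months. Both 5-month libraries stood above both 2.5-month libraries, with means of 6.54% ± 0.323 and 15.3% ± 3.48 (SD, n = 2 each), a difference of 8.77 percentage points. An exact 2-sided permutation test of 2 against 2 libraries gave p = 0.33, which is the smallest value it allows, so this design cannot reach 0.05. The intervals cover counting error within a library only. Rods were found by a marker rule that also allowed at most 2 UMIs of the Müller rule genes. Rods made up 45.7% and 39.5% of barcodes at 2.5 months and 20.02% and 22.0% at 5 months. Rod shares, and the set of barcodes outside the rod rule, therefore depend in part on the Müller markers. Among barcodes outside the rod rule, Müller glia were at 11.6%, 11.2%, 22.2% and 16.5%, so the libraries kept the same separation by age. When every barcode was thinned to 1000 UMIs, with at least 3 marker UMIs and 2 markers asked for, the shares were 10.4%, 8.998%, 20.2% and 15.7%. Shares of barcodes depend on how nuclei were freed and captured, and more Müller glia nuclei cannot be told apart from fewer nuclei of other types.

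**Figure D1:**
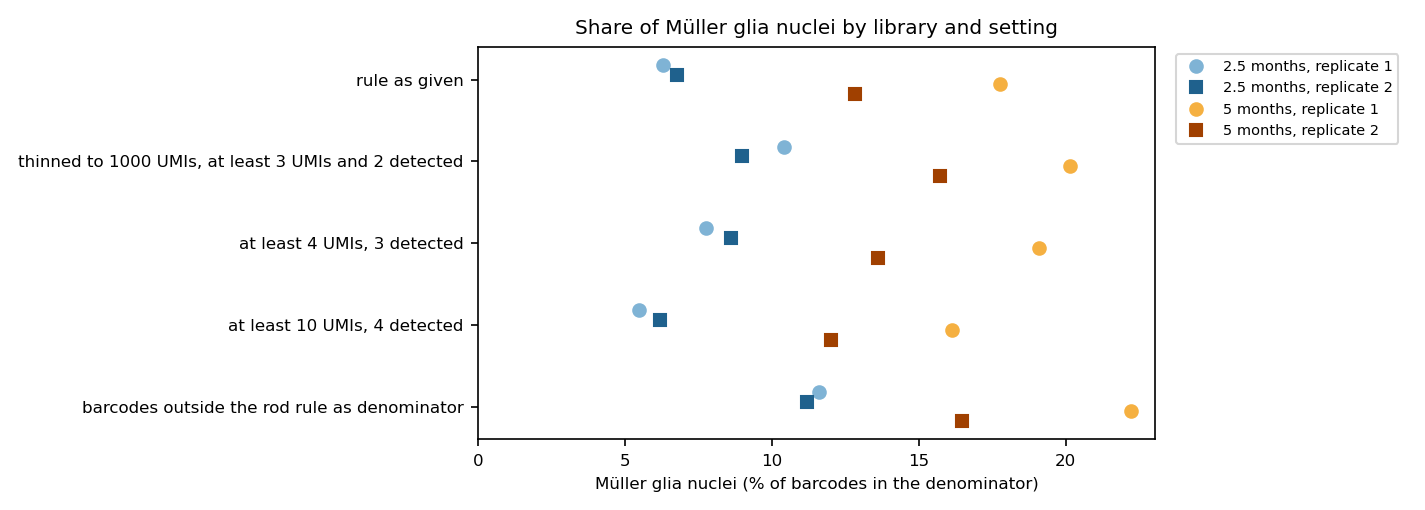
Share of Müller glia nuclei (x axis, % of the barcodes in the denominator) under the rule as given and 4 other settings (y axis), with 1 point per library. In each setting both 5-month libraries lie above both 2.5-month libraries; under the rule as given the points are at 6.31%, 6.77%, 12.8% and 17.8%.

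The label was checked against 14 Müller glia genes that the rule did not use. Of these, 13 had a higher mean level in Müller glia nuclei than in rods, ON bipolar cells and amacrine cells. The exception was Slc38a3, a glutamine transporter, whose ratio to ON bipolar cells was 0.989. Sox9, a transcription factor that Müller glia keep from progenitors, was at 66.3, 74.3, 66.7 and 82.1 CPM in the 4 libraries, against means of 6.83 CPM in rods, 2.93 in ON bipolar cells and 2.82 in amacrine cells. Gpr37, an orphan receptor, was at 510, 524, 533 and 551 CPM against 29.3, 31.8 and 26.5 CPM. Crb1, which organises the outer limiting membrane and is mutated in inherited blindness, was at 1000, 1271, 1176 and 941 CPM against 127, 25.4 and 34.7 CPM. The libraries of Müller glia did not overlap those of the other classes for these genes. The label held for the nuclei as a whole, while 576 of the 3586 fell in sub-clusters with markers of other cell types, described below. Since the nuclei were chosen on marker genes, these contrasts are a description.

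**Figure D2:**
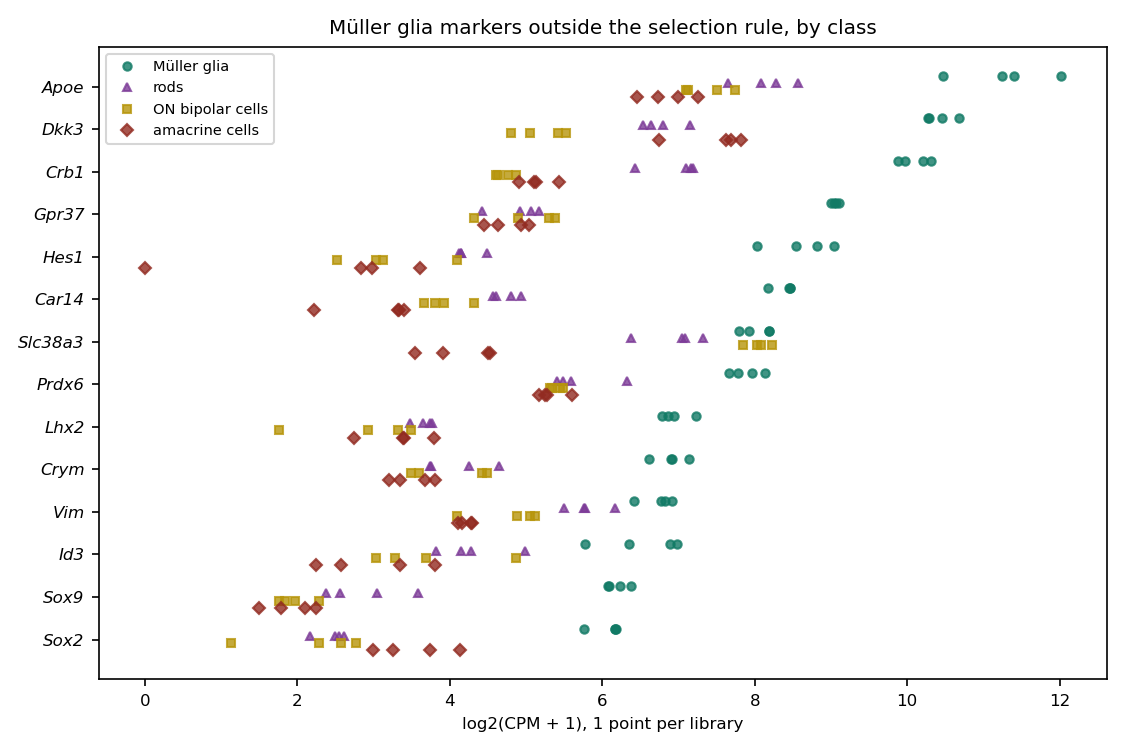
Levels of 14 Müller glia genes outside the rule (y axis) as log2(CPM + 1) (x axis), with 1 point per library for Müller glia, rods, ON bipolar cells and amacrine cells. Müller glia points lie above the other classes for 13 of the 14 genes; Slc38a3 overlaps ON bipolar cells.

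Each of the 8 rule genes separated the libraries by age: 6 were higher and 2 lower in both 5-month libraries, with log2 fold changes from -0.23 to 0.54. Over all genes tested, 16.6% were higher and 22.5% lower in this way. The rule chose the nuclei on these 8 genes, so no age effect is read from them. Glul was at 1694, 1621, 1788 and 1842 CPM in Müller glia, against 144 CPM in rods. Slc1a3 was at 1019, 1091, 921 and 911 CPM, against 12.4 CPM in rods. Aqp4 was at 306, 303, 445 and 419 CPM and Kcnj10 at 79.8, 106, 115 and 115 CPM, against 7.93 and 2.10 CPM in rods. The sum of the 8 was 7180, 6910, 7458 and 7528 CPM. A Slc1a3 UMI was found in 84.3% to 90.2% of Müller glia nuclei and in 1.81% to 3.84% of rods, which should lack it, at median depths of 2615 to 4092.5 and 1186 to 1800 UMIs. The rule asks for such UMIs, so these shares are not a finding.

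Among 3253 genes at 50 CPM or more in Müller glia of every library, 146 (4.49%) had at least 10 times the level of the highest of the 3 other classes. The 15 with the largest ratios included long noncoding RNAs, receptors, enzymes and matrix genes. The 3 at the top were the noncoding RNAs BC055402, AC153010.1 and Gm29260, at ratios of 123, 121 and 110, with 1 CPM added to both levels. Greb1, known as an oestrogen-regulated gene, was at 303, 333, 357 and 390 CPM and at 2.77 CPM in rods. Nr1h4, the bile acid receptor FXR, was at 201, 197, 176 and 176 CPM and at 1.30 CPM in rods. Folh1, a glutamate carboxypeptidase that releases glutamate from peptides, was at 572, 528, 480 and 410 CPM. Gldc, the glycine cleavage enzyme, was at 401, 419, 334 and 281 CPM, and Etnppl, a phospholyase of phosphoethanolamine, at 206, 178, 139 and 144 CPM. Col2a1, the chain of type II collagen found in vitreous, was at 189, 199, 220 and 260 CPM. The list was closed by Lrrc66, Gm48742, Flt1, Ust, Abca8b and Plce1.

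Flt1, which encodes a receptor for vascular endothelial growth factor (VEGF), was at 1259, 1359, 1434 and 1318 CPM in Müller glia and at 5.45 to 21.9 CPM on average in the other classes. It had a UMI in 85.0% to 90.1% of Müller glia nuclei and in 1.78% to 2.52% of rods. Kdr, the other main VEGF receptor, was at 321, 387, 405 and 371 CPM against 21.6 CPM in rods. Both are listed as endothelial markers, but other endothelial genes were near 0 in the same nuclei. Cldn5 was at 3.38, 1.36, 1.51 and 0.484 CPM, Cdh5 at 4.06, 0.453, 1.25 and 0.242 CPM, and Egfl7 had no UMI in any library, which allows up to 0.37 CPM over both 5-month libraries and 2.03 CPM in 2.5-month replicate 1. The ligand gene Vegfa was present too, at 118, 143, 189 and 194 CPM. The ages did not overlap for Vegfa, with a log2 fold change of 0.59 (edgeR adjusted p = 0.786), which did not pass the test.

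Genes for glutamate and amino acid handling were mostly highest in Müller glia: 12 of 18 members. The share of all genes that were highest in Müller glia was not computed. Such counts, here and in the next paragraph, are therefore a description only. Slc1a2, a glutamate transporter shared with photoreceptors and bipolar cells, was at 299, 429, 470 and 410 CPM in Müller glia and at 217 and 359 CPM in rods and ON bipolar cells. Slc6a11, a carrier of the transmitter GABA, was at 246 to 341 CPM, against a mean of 167 CPM in amacrine cells. Of 22 genes for potassium, water and acid-base handling, 10 were highest in Müller glia. Sntb1 and Dtna, parts of the dystrophin complex that anchors channels at the end-feet, were at 859 to 1165 CPM and 606 to 776 CPM. Dmd, dystrophin itself, was at 480 to 731 CPM, below the rod mean of 3818 CPM. Car14, a membrane carbonic anhydrase, was at 352, 289, 347 and 353 CPM against 25.6 CPM in rods.

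Adhesion genes of the outer limiting membrane were present in every library. Cdh2, the cadherin of these junctions, was at 1398, 1597, 1503 and 1267 CPM, against 213 to 315 CPM on average in the other classes. Pard3 and Magi1, scaffold proteins at such junctions, were at 276 to 371 CPM and 374 to 519 CPM. Of 22 transcription factors of Müller glia and progenitors, 17 were highest in Müller glia. Nfia and Nfib, which drive gliogenesis, were at 1063 to 1526 CPM and 885 to 1038 CPM. Tcf7l2, a mediator of Wnt signalling, was at 601, 574, 540 and 461 CPM against 2.65 to 19.8 CPM in the other classes. In the Notch pathway, 14 of 22 genes were highest in Müller glia, among them the receptors Notch1 (163, 154, 205 and 156 CPM) and Notch2 (228, 229, 244 and 193 CPM). Their target Hes1 was at 370, 260, 450 and 524 CPM against 17.8 CPM in rods. The retinoid genes were led by Rdh10, a retinol dehydrogenase, at 110, 115, 116 and 95.2 CPM.

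Clustering the 3586 nuclei without the 21 rule genes gave 10 sub-clusters. Of these, 4 (numbers 1, 6, 8 and 9, with 3010 nuclei in all) were kept as a set without the other 576 nuclei, whose sub-clusters carried markers of other retinal or ocular cell types. This choice was made after the clusters were seen. Sub-cluster 1 held 72.5% and 70.1% of the 2.5-month nuclei and 1.79% and 0.938% of the 5-month nuclei. Sub-cluster 9 held 68.7% of the nuclei of 5-month replicate 1, and sub-cluster 8 held 72.6% of those of 5-month replicate 2. Sub-cluster 1 was led by Tnnc2, Rps2, Rps21, Dio2 and Pros1, and all 6 striated muscle markers were over 2 times the other nuclei in it (204 against 40.03 CPM in sum). These 3 sub-clusters followed age or a single library, so no change in their sizes is read from them. Sub-cluster 8 was led by Hes5, Tsix and Xist, and sub-cluster 9 by Gbp3, Bst2, Lgals3bp and Ddx60, with Uty, a Y-linked gene, among its first 10.

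**Figure D3:**
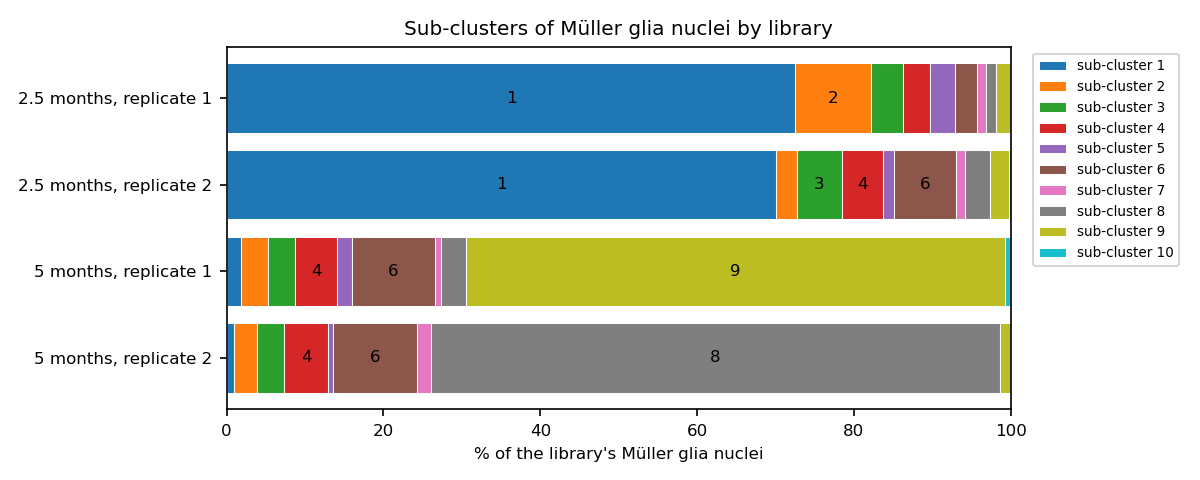
Sub-clusters of Müller glia nuclei (colours, numbered where over 5%) as a share of each library's nuclei (x axis, %), with 1 bar per library. Sub-cluster 1 fills 72.5% and 70.1% of the 2.5-month bars, sub-cluster 9 fills 68.7% of 5-month replicate 1, and sub-cluster 8 fills 72.6% of 5-month replicate 2.

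Sub-cluster 6 (332 nuclei) came from all 4 libraries, at 2.79%, 7.97%, 10.6% and 10.7% of nuclei. Its leading genes were Cyp26b1, which degrades retinoic acid, Gm29683, Brinp1, Nxph1 and Efnb2, with Tbx5 next. Tbx5 and Efnb2 are known as dorsal genes of the retina. Clustering used these genes, so their levels there are a description. Among the 3010 nuclei, those with a Tbx5 UMI numbered 14, 14, 47 and 31. In each library Efnb2 was higher in nuclei with a Tbx5 UMI: at 156, 166, 268 and 145 CPM, against 62.0, 42.7, 44.6 and 28.1 CPM in nuclei without one. Aldh1a1, a dorsal retinoic acid synthesis gene, was at 379, 242, 162 and 191 CPM against 98.8, 96.6, 72.5 and 63.4 CPM. The counts behind the Efnb2 values with Tbx5 were 7, 11, 38 and 16 UMIs. The exact Poisson intervals of these 2 groups overlapped in 2.5-month replicate 1 (62.7 to 322 against 47.7 to 79.1 CPM) and stood apart in the other 3 libraries (83.0 to 297 against 33.4 to 53.8 CPM, 190 to 368 against 37.1 to 53.1 CPM and 83.1 to 236 against 22.5 to 34.7 CPM). They cover counting error only. Other dorsal and ventral genes did not all follow this split. Ephb2, a ventral gene, was at 66.9, 181, 169 and 99.9 CPM with Tbx5. It was higher with Tbx5 than without in 2 libraries, 2.5-month replicate 2 (121 CPM without) and 5-month replicate 1, and lower in the other two. Split instead by a UMI of the ventral gene Vax2, Efnb2 was at 136, 7.81, 13.6 and 4.17 CPM with it and at 57.9, 54.1, 58.6 and 34.5 CPM without, so 2.5-month replicate 1 went the other way from the rest. Glul, for comparison, was at 1830, 2220, 2070 and 2090 CPM in nuclei with Tbx5 and at 1970, 1800, 2100 and 2100 CPM in those without.

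The other sub-clusters carried genes of other cell types beside the Müller genes. Sub-cluster 7 (44 nuclei, from all 4 libraries) was astrocyte-like: 6 of 7 listed astrocyte markers were over 2 times the other nuclei, and Pax2, Pdgfra and Gfap were among its first 10 genes. Its Gfap was at 347 CPM against 2.66 CPM in the other nuclei, and its Slc1a3 at 1707 CPM, while Aqp4 was at 26.7 CPM. Sub-cluster 2 (141 nuclei) was like ciliary nonpigmented epithelium: 6 of 8 listed markers were over 2 times the other nuclei, among them Zic1 at 307 CPM, and Mecom, Slc26a4 and Fbln1 led it. It made up 9.66% of nuclei in 2.5-month replicate 1 and 2.59% to 3.44% in the other libraries.

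Sub-cluster 3 (140 nuclei) had rod genes at 13066 CPM against 4562 CPM in the other nuclei and was led by Gm44196 and Pdzph1. Sub-cluster 4 (184 nuclei), led by the neuronal genes Nrg3, Asic2, Mgat4c and Rbfox1, had a median of 5943 UMIs. Sub-cluster 5 (56 nuclei) had all 6 listed fibroblast markers over 2 times the other nuclei, and sub-cluster 10 (11 nuclei, median 8460 UMIs) had 4 of 5 horizontal cell markers so. Rod genes were found throughout: the 13 rod markers summed to 6283, 4580, 5516 and 4177 CPM over all Müller glia nuclei. In ON bipolar cells, which should lack these genes, they summed to 3709 to 5952 CPM, a range that overlaps the one in Müller glia.

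The age comparison asks which genes of Müller glia differ between 2.5 and 5 months. Counts were summed per library, and edgeR's quasi-likelihood test was fitted to 13495 genes. A gene passed where its p, adjusted by Benjamini and Hochberg's method, was under 0.05. Over all Müller glia nuclei no gene rose (0%) and 1 fell (0.00741%). At an unadjusted p under 0.05 there were 481 higher (3.56%) and 319 lower (2.36%), while DESeq2 called 15 higher and 6 lower. The calls moved with the nuclei taken.

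The gene that fell over all nuclei was Rps2, a protein of the small ribosomal subunit. Its levels were 81.9 and 53.4 CPM in the younger and 3.01 and 3.39 CPM in the older libraries, a log2 fold change of -4.33 (SE 0.321, edgeR adjusted p = 0.00601). The ages were far apart. Rods showed the same in these libraries, at 130 and 70.2 CPM and at 4.19 and 4.62 CPM. Of 23 ribosomal protein genes tested, 17 had a negative log2 fold change, while 51.2% of all genes were above 0. The median of the 23 was -0.12, beside 0.01 over all genes. Rps2 and Rps21 stood apart from the others: Rps29, a member with high counts, was at 242, 115, 197 and 186 CPM. The median of the list was 0.31 without 2.5-month replicate 1 and -0.48 without 2.5-month replicate 2.

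In the 3010 nuclei without sub-clusters led by other types, 7 genes rose (0.0566% of 12360) and 4 fell (0.0324%). At an unadjusted p under 0.05 these shares were 3.64% and 2.71%. The name does not hold for muscle and lens genes, since the set keeps sub-cluster 1. There all 6 striated muscle markers and 2 of 8 lens markers were over 2 times the other nuclei. The 6 striated muscle genes summed to 461 and 22.3 CPM in its 2.5-month libraries and to 31.3 and 18.9 CPM at 5 months. For the 8 lens genes the sums were 107 and 35.9 CPM and 5.05 and 6.94 CPM. The values of the genes in this and the next 2 paragraphs are from these 3010 nuclei. Cmss1, a gene for a small-subunit processing factor, had 358 and 634 CPM in the younger libraries and 2406 and 3076 CPM in the older ones (log2 fold change 2.50, SE 0.277, edgeR adjusted p = 0.016). Gm44511, an unnamed gene model on chromosome 6, was at 310 and 256 CPM and at 815 and 798 CPM (log2 fold change 1.56, SE 0.179, edgeR adjusted p = 0.016). Neither gene's ages overlapped. Rods were at 527, 938, 2422 and 4062 CPM for Cmss1 and at 279, 265, 764 and 751 CPM for Gm44511, so the same direction was seen outside Müller glia.

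Il31ra, a cytokine receptor gene, was at 14.9 and 11.98 CPM and at 54.2 and 79.8 CPM (log2 fold change 2.38, edgeR adjusted p = 0.0247). Peak1, a pseudokinase of the cytoskeleton, was at 213 and 272 CPM and at 623 and 563 CPM (1.33, edgeR adjusted p = 0.0409). Both also had higher CPM in both 5-month rod libraries, at 52.7 and 95.4 CPM against 11.7 and 17.6 CPM for Il31ra. Camk1d, a calcium-dependent kinase gene at chr2:5293457-5714515, was at 92.8 and 211 CPM and at 756 and 590 CPM (2.17, edgeR adjusted p = 0.0453). Rods were at 897, 1093, 1201 and 1294 CPM for Camk1d, and amacrine cells at 304, 423, 777 and 725 CPM (log2 fold change 1.00). Both classes were thus higher in both 5-month libraries. Tshz3, a zinc finger factor gene at chr7:36698118-36773553, was at 109 and 85.0 CPM and at 240 and 219 CPM (1.30, SE 0.188, edgeR adjusted p = 0.0453). In rods Tshz3 was at 34.4, 44.4, 57.3 and 40.0 CPM, where the ages overlapped.

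Snhg11, a long noncoding RNA gene of neurons, was at 15.8 and 24.0 CPM and at 63.3 and 93.7 CPM (1.98, SE 0.290, edgeR adjusted p = 0.0453). It was at 1071, 1073, 2664 and 2741 CPM in rods, and the log2 fold change was 0.38 in Müller glia nuclei with no UMI of any exclusion gene (edgeR adjusted p = 0.938), so the call ended there. Without the top 5% of Müller glia nuclei by UMIs the log2 fold change was 0.79 (edgeR adjusted p = 0.616). Rps21, of the small ribosomal subunit, fell from 164 and 77.0 CPM to 15.2 and 14.5 CPM (-2.95, SE 0.343, edgeR adjusted p = 0.016). Cryaa and Crybb2, crystallins of the lens, fell as well, with edgeR adjusted p = 0.0409 and 0.0453. Over all Müller glia nuclei Cryaa had 61, 28, 0 and 1 UMIs and Crybb2 60, 22, 0 and 0 UMIs. A count of 0 allows up to 0.37 CPM over both 5-month libraries. The pooled 2.5-month level of Crybb2, 22.2 CPM, was 60.2 times this limit. Without 2.5-month replicate 1 it was 9.96 CPM, or 27 times the limit. These ratios leave out the counting error at 2.5 months and the spread between animals. In rods of 2.5-month replicate 1 Cryaa was at 49.7 CPM and Crybb2 at 71.0 CPM, above their levels in Müller glia, and 8 lens genes summed to 121, 35.3, 4.77 and 6.30 CPM in Müller glia. The part of lens or muscle RNA in these values was not tested.

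**Figure D4:**
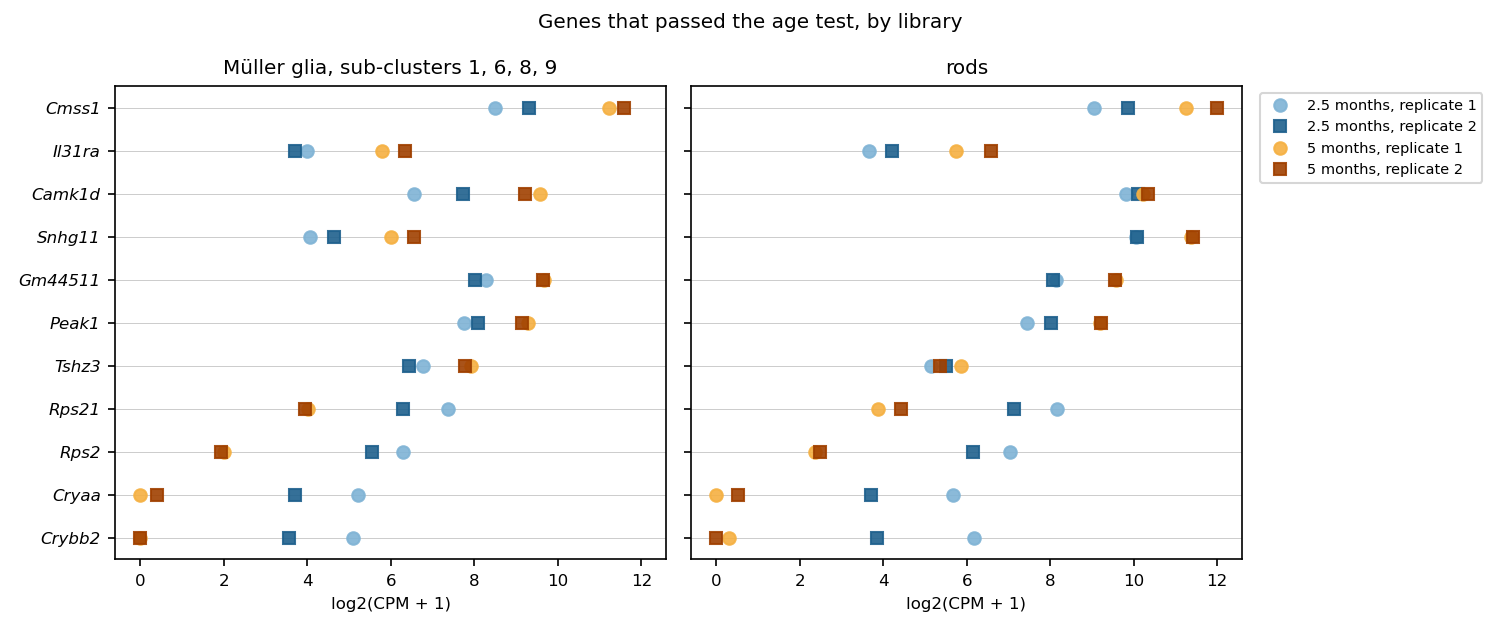
The 11 genes that passed the age test in Müller glia of sub-clusters 1, 6, 8 and 9 (left) and their levels in rods (right), as log2(CPM + 1) (x axis) with 1 point per library. In Müller glia the 2.5-month and 5-month points do not overlap for any of the 11 genes; in rods Tshz3 overlaps.

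The log2 fold changes between the ages followed gene length across genes. Spearman's correlation was -0.24 over 13488 genes, which are not independent replicates, and the median log2 fold change was 0.16 in the shortest of 4 equal bins and -0.10 in the longest. The software versions that coincide with age differ in their defaults for reads in introns, and intron counting is not stated in the sources used here. Their part in the result was not tested.

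The interferon and major histocompatibility complex (MHC) class I genes set 1 library apart. Interferons induce these genes through a complex of transcription factors that binds a motif called the interferon-stimulated response element. Bases of 4 promoters with the motif GAAANNGAAA are shown, since these genes are among those that stood apart; capitals mark the motif or overlapping copies of it, read as TTTCNNTTTC on the other strand. The sequences come from RefSeq (GRCm38.p6) and run 5′ to 3′ along the gene's strand.
Bst2, chr8:71537557-71537632, minus strand: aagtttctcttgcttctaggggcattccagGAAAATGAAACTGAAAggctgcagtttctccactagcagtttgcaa
Isg15, chr4:156200845-156200926, minus strand: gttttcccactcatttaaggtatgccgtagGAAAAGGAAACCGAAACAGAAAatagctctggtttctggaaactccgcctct
B2m, chr2:122147518-122147587, plus strand: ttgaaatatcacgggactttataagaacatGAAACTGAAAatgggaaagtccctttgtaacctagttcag
H2-T23, chr17:36032786-36032855, minus strand: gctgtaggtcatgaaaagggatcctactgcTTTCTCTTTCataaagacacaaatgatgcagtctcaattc
The motif was searched on both strands in the 250 bases before each start. It was found in 9 of the 28 listed genes that matched the RefSeq table (32.1%) and in 936 of the 27025 promoters searched (3.46%). A match is a description of the letters and shows no binding.

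Of 33 interferon and MHC class I genes tested, 18 were highest in 5-month replicate 1 by over 1.5 times the next library. Over all genes tested, 136 of 13495 (1.01%) were so placed, and 3.53%, 0.941% and 4.04% were so placed in 2.5-month replicates 1 and 2 and 5-month replicate 2. The list's 35 genes summed to 810, 676, 1372 and 684 CPM. Bst2, which tethers budding virus, was at 9.47, 6.34, 85.0 and 14.5 CPM. Oasl2, of the oligoadenylate synthetase family, was at 32.5, 38.0, 110 and 28.8 CPM. In each of these genes 5-month replicate 1 was high and the other 3 libraries lay well below it.

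The antigen presentation genes B2m (44.0, 26.3, 72.2 and 39.7 CPM) and H2-T23 (7.44, 8.61, 38.9 and 13.6 CPM) had the same order at the top. Usp18, which restrains interferon signalling, was at 14.9, 10.9, 38.9 and 9.20 CPM, and Isg15 at 9.47, 3.62, 19.3 and 9.45 CPM. Ifi35 (54.1, 40.3, 37.6 and 37.8 CPM) and Ifit2 (21.7, 19.0, 8.53 and 12.4 CPM) did not share it. At 1000 UMIs per nucleus, 52.6%, 44.6%, 71.5% and 47.8% of Müller glia nuclei had a UMI of the list. In rods the list summed to 381, 264, 389 and 304 CPM, and in amacrine cells to 200, 180, 300 and 257 CPM. In ON bipolar cells it summed to 195, 184, 272 and 193 CPM. The 5-month replicate 1 was highest in each class and stood less far apart there than in Müller glia. That difference between classes was not tested.

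No interferon gene passed the age test, and 5 were higher at an unadjusted p under 0.05 (3.56% of all genes). Of the 33 genes, 26 had a log2 fold change above 0, as had 51.2% of all genes. The list's median log2 fold change between the ages was 0.46 with all libraries, -0.10 without 5-month replicate 1 and 0.96 without 5-month replicate 2. The age contrast of this list therefore rested on 1 library. Microglia and macrophage markers summed to 58.9, 69.3, 57.7 and 106 CPM in Müller glia, and were highest in the other 5-month library. Most of this sum was 1 gene, P2ry12, with a mean of 48.9 CPM. A part of microglia in the interferon values was not tested.

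**Figure D5:**
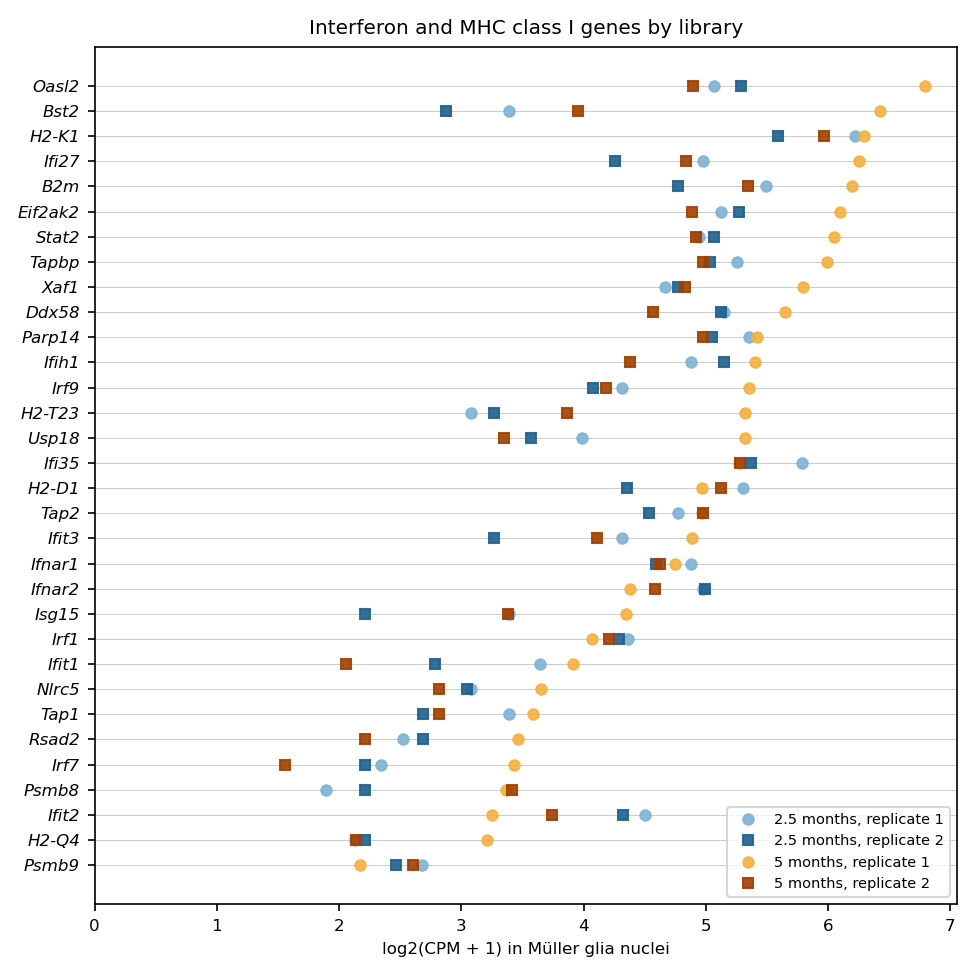
Levels of interferon and MHC class I genes (y axis) in Müller glia nuclei as log2(CPM + 1) (x axis), with 1 point per library. The 5-month replicate 1 lies to the right of the other 3 libraries for most genes, among them Oasl2 at 110 CPM and Bst2 at 85.0 CPM.

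Of 23 gliosis genes tested none passed. While 51.2% of all genes had a log2 fold change above 0, 18 of the 23 had a negative one, and their median was -0.23. This median was -0.05 without sub-clusters led by other types, -0.06 in nuclei with no exclusion UMI, and between -0.25 and -0.13 with 1 library left out. The ages did not overlap in 1 gene in the higher direction (16.6% of all genes) and in 8 in the lower direction (22.5% of all genes). The 30 listed genes summed to 2688, 2433, 2029 and 2111 CPM in Müller glia. They summed to 1036, 741.7, 567.9 and 693.2 CPM in rods and to 865, 684.6, 569.5 and 631.9 CPM in ON bipolar cells. In amacrine cells the sums were 563.8, 459.6, 414.6 and 455.2 CPM. Each class was thus lower in both 5-month libraries, and a difference between classes was not tested. Gfap was at 12.2, 14.0, 2.01 and 6.30 CPM, with a log2 fold change of -1.62 (edgeR adjusted p = 0.786). Gfap was at 347 CPM in the astrocyte-like sub-cluster and at 5.75 CPM or less in sub-clusters 1, 6, 8 and 9. Vim, an intermediate filament gene, was at 120, 112, 84.5 and 108 CPM, and Stat3, a signal carrier of gliosis, at 116, 109, 76.5 and 62.5 CPM (-0.65, edgeR adjusted p = 0.777). Cp, ceruloplasmin, was at 1431, 1385, 1118 and 1073 CPM.

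Immediate early genes, which respond quickly to activity and to handling, had a median log2 fold change of -0.51, and none passed. Of 14 tested genes 11 were negative, while 51.2% of all genes had a log2 fold change above 0. The median ranged from -0.75 to -0.40 with 1 library left out. The 24 listed genes summed to 330.8, 259.5, 204.2 and 255.5 CPM in Müller glia, so the replicates 2 of the ages lay close together. They summed to 705.6, 547.2, 270.9 and 253.7 CPM in ON bipolar cells and to 384.4, 313.4, 253.4 and 262.8 CPM in amacrine cells. In rods the sums were 436.8, 310.1, 298.4 and 299.2 CPM. Lower sums at 5 months were thus seen in each class, and a difference between classes was not tested. Dusp1, a phosphatase, was at 35.9, 19.0, 13.5 and 9.45 CPM, and Egr1, a zinc finger factor, at 8.79, 11.8, 4.01 and 1.21 CPM. The ages did not overlap in these genes, as in 22.5% of all genes in the lower direction, and neither passed (edgeR adjusted p = 0.777 for both). They and the other genes named below for an unadjusted p were chosen after their values were seen.

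Apoe, a lipid carrier that Müller glia secrete, was at 2433, 1414, 2704 and 4151 CPM, with a log2 fold change of 0.87 (edgeR adjusted p = 0.803). The spread within each age was wide and the result did not pass. Hes1 had a log2 fold change of 0.67 (edgeR adjusted p = 0.786). Hes5, also a Notch target, was at 64.3, 43.5, 63.5 and 168 CPM, so 5-month replicate 1 lay beside the 2.5-month libraries and replicate 2 alone was high. Over 19 Notch genes the median was -0.03, and none passed.

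No member of the remaining lists passed. The median log2 fold change was -0.03 for glutamate and amino acid handling (16 genes tested), -0.10 for potassium, water and acid-base handling (18), 0.05 for retinoid handling (14), -0.12 for apical adhesion (18) and -0.04 for transcription factors (19). It was 0.05 for energy metabolism (30), 0.00241 for cholesterol synthesis (17), -0.07 for heat shock (15), -0.07 for clock genes (19), -0.15 for cell cycle (11), -0.16 for complement (8), -0.16 for growth factors and guidance cues (23) and 0.08 for dorsal and ventral genes (13). Several of these medians changed sign with the libraries or nuclei taken. The complement median was -0.44 without 5-month replicate 1 and 0.33 without sub-clusters led by other types. The growth factor median was 0.18 and the heat shock median 0.18 without 2.5-month replicate 1, and the cholesterol median was -0.24 without those sub-clusters. No direction is read from these lists. Clock genes were led by Rora (4225, 5500, 4270 and 3942 CPM), and Per1 was at 55.5, 53.9, 39.4 and 32.5 CPM (-0.57, edgeR adjusted p = 0.803). Slc2a1, the glucose transporter, was at 229, 172, 281 and 252 CPM (0.45, edgeR adjusted p = 0.803).

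Whether an age effect differed between Müller glia and another class was tested by the interaction of class and age with library as a block. Against rods, edgeR called 0 higher (0%) and 0 lower (0%) of 15371 genes, with 537 (3.49%) and 794 (5.17%) at an unadjusted p under 0.05 and 4 and 11 called by DESeq2. Against amacrine cells, 34 genes had a higher age effect in Müller glia (0.245% of 13897) and 3 a lower one (0.0216%); at an unadjusted p under 0.05 the shares were 3.76% and 2.59%. The 5 leading genes of the 34 all had higher levels in amacrine cells than in Müller glia. Slc35f4 was at 6.09, 7.25, 30.9 and 22.3 CPM in Müller glia and at 258, 274, 231 and 192 CPM in amacrine cells (interaction 2.37, SE 0.271, edgeR adjusted p = 0.00112). Without sub-clusters led by other types it was at 2.78, 1.14, 2.36 and 2.84 CPM, and the adjusted p was 0.948.

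Epha6, Ralyl and Kcnd2 lost the call in the same way, with edgeR adjusted p = 0.788, 0.932 and 0.372 without those sub-clusters. Snhg11 kept it, with an interaction of 1.12 over all nuclei and 1.55 without those sub-clusters (edgeR adjusted p = 6.14e-05). Its age effect in Müller glia was 0.38 in nuclei with no exclusion UMI and 0.79 without the top 5% of nuclei (edgeR adjusted p = 0.938 and 0.616). The interaction was not run on those nuclei. Snhg11 was also higher in both 5-month rod libraries. Among genes with a lower age effect in Müller glia, Cadps2, a factor for vesicle release, was at 121, 143, 101 and 80.4 CPM in Müller glia and at 10.98, 9.45, 29.8 and 21.2 CPM in amacrine cells (interaction -1.88, SE 0.302, edgeR adjusted p = 0.00969). Fhit, a gene in a fragile site, was at 314, 292, 212 and 199 CPM in Müller glia and at 165, 172, 211 and 233 CPM in amacrine cells (-0.86, SE 0.168, edgeR adjusted p = 0.0331). In both genes the log2 fold change had opposite signs in the 2 classes (-0.51 and 1.33 for Cadps2, -0.52 and 0.37 for Fhit), and both kept the call without those sub-clusters, at edgeR adjusted p = 0.00411 and 0.0171. Cadps2 passed in 6 and Fhit in 4 of 9 alternatives. Tac2, a neuropeptide gene, was at 32.5, 9.96, 11.8 and 5.33 CPM in Müller glia (-2.25, edgeR adjusted p = 0.0125). Without those sub-clusters its interaction was -2.0 and did not pass (edgeR adjusted p = 0.113).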

How the data were processed

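Each of the 4 libraries was deposited as a table of raw UMI counts (whole numbers, 31053 genes); nuclear RNA was profiled on mm10 with Cell Ranger, per the labels and the submitters' processing notes, and the version stands in the file headers. Whether introns were counted is not given in the sources used here. From the counts, members were found by the rule, and counts were summed per class and library. Sums were tested with edgeR 4.0.16 (TMM, filterByExpr, quasi-likelihood, Benjamini-Hochberg, 2-sided; R 4.3.3) and DESeq2 1.42.0 as an alternative, after a check on simulated data. Rods, ON bipolar cells and amacrine cells were found by marker rules with at most 2 UMIs of the Müller rule genes. Sub-clusters came from scanpy 1.11.5 (2000 variable genes, 30 components, 15 neighbours, Leiden resolution 0.5). CPM are counts per 1000000 UMIs of the sum, without TMM. Genes with duplicated symbols (35) were left out of the lists. No doublet caller was run; nuclei with no exclusion UMI, and nuclei without the top 5% by UMIs, were alternatives. Named genes were those called, up to 4 members of each list with the highest mean, the 15 leading level ratios, and up to 5 interaction genes in each direction. The members and gene lists were chosen with earlier results of these data known. With 1 animal per library, p-values measure the spread between 2 animals per age. Intervals and limits of 3 counts cover counting error only. Positions are from GENCODE M21 on GRCm38, and promoters of 1 chromosome were not used in the motif search. Some genes are not reported here.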

Additional observations from a re-analysis of the deposited data

Results flagged for a closer look

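For 8 genes the effect of age differed between Müller glia and amacrine cells by the interaction test of edgeR (adjusted p under 0.05), with the difference given as a log2 value. Slc35f4 was at 2.37, Snhg11 at 1.12, Epha6 at 1.54, Ralyl at 1.19 and Kcnd2 at 2.98, higher in Müller glia. Cadps2 was at -1.88, Tac2 at -2.25 and Fhit at -0.864, lower in Müller glia. These are the leading genes in each direction of 34 and 3 called. Without the sub-clusters led by other cell types the values were 0.956 for Slc35f4, 0.752 for Epha6, 0.426 for Ralyl 1.26 for Kcnd2 and -2.0 for Tac2, and these 5 genes no longer passed. The value of Tac2 stayed near that over all nuclei. Snhg11 still passed there, while its age effect in Müller glia was 0.38 in nuclei with no exclusion UMI (edgeR adjusted p = 0.938). With 2 libraries per age, no group was large enough to look for a single library far from the others by a fixed criterion.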

How the results depend on the processing

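The share difference of 8.77 percentage points ranged from 6.30 to 11.2 with 1 library left out and was 8.24 thinned, 8.18 and 8.24 at 4 and 10 marker UMIs and 7.94 outside rods. Genes called higher and lower over all Müller glia were 0 and 1. They were 15 and 6 with DESeq2, 6 and 4 with no exclusion UMI, 111 and 86 with no filter, 25 and 4 under the stricter rule, 3 and 1 after thinning, 3 and 4 without the top 5% of nuclei, and 7 and 4 without sub-clusters led by other types. With 1 library left out they ranged from 8 to 101 and from 2 to 157. Without those sub-clusters the 7 and 4 ranged from 2 to 32 and from 1 to 57. Against rods the counts 0 and 0 were 4 and 11 with DESeq2, 64 and 161 with no filter, 0 and 2 after thinning, 5 and 10 without those sub-clusters, and from 0 to 475 and 0 to 494 with 1 library left out. Against amacrine cells the counts 34 and 3 were 13 and 0 with DESeq2, 97 and 27 with no filter, 18 and 2 with relative log expression scaling, 27 and 4 after thinning, 10 and 6 without those sub-clusters, and from 20 to 152 and 4 to 63 with 1 library left out. The cause of these moves was not tested. Among the genes named above that passed, no fold change or interaction changed sign under the alternatives. Of the other genes called against amacrine cells, Scn1a had an interaction of 1.08 over all nuclei and -0.27 without those sub-clusters. The medians of most lists changed sign under at least 1 alternative (9 of 13 for glutamate handling, 10 for cholesterol synthesis, 6 for complement, 5 for Notch and 4 for heat shock). Rps2 kept its call under the 13 alternatives run, from -4.98 to -4.01. Cmss1 and Gm44511 did not pass over all nuclei (adjusted p = 0.0605) and passed in 12 of 13 alternatives. The leave-one-out fits assume that the lone library varies like the other age. The summed depth of 1478265 UMIs in 2.5-month replicate 1 limits genes at low levels.

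With the replicate number as a block, 20 genes were higher and 16 lower. Across genes, the deviations of replicate 1 from the mean of its age had a correlation of 0.0174 between the 2 ages. With 2 libraries per age, replicate 2 deviates by the same amount the other way, so it adds no second value. The correlation covers the tested genes as a whole and does not speak for single genes. Xist separates replicate 1 from replicate 2 at both ages, so the block also holds that difference.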
